A study of Mus musculus with 12 samples.

Results

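The genes that encode the proteins of the cytosolic and the mitochondrial ribosome were read in the liver of mice exposed to secondhand smoke (SHS). Members were chosen by gene symbol: names of the form Rpl or Rps followed by a number, with Rplp0 to Rplp2 and Rpsa, formed the cytosolic set, and names of the form Mrpl or Mrps followed by a number formed the mitochondrial set. The S6 kinases, whose symbols begin with Rps6k, were left out. By this rule 125 of the 18193 genes that had a probe set of their own were members, 49 of them cytosolic and 76 mitochondrial. They were read by 261 of 34945 such probe sets, which are groups of short probes that measure the transcripts of 1 gene. A further 114 probe sets list a member together with other genes, and for this reason Rplp1, Rpl3, Rpl5, Rpl10, Rpl36a and Rpl36al could not be read.

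All 3 groups were male C57BL/6 mice, adults of 6 to 8 weeks at the start of treatment, with 4 mice and 4 Affymetrix Mouse Genome 430 2.0 arrays each. Controls (replicates 1 to 4) were sham-exposed to filtered air, SHS4m mice (replicates 66 to 69) received whole-body SHS for 4 months, and recovery mice (replicates 70 to 73) spent a further 1 month in clean air after the same exposure. The labels do not say whether the control arrays came from sham mice with or without the recovery month. Age and exposure therefore cannot be fully told apart in either comparison with controls. Recovery mice were also 1 month further from the start of treatment than SHS4m mice. In the comparison of these 2 groups age and recovery cannot be told apart. No batch is given in the labels.

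Ribosomes of the cytosol translate nearly all cellular mRNAs, and their proteins are made in matched amounts from mRNAs that commonly begin with a run of pyrimidines, the terminal oligopyrimidine element, through which mTORC1 signalling controls their translation. The mitochondrial ribosome has a separate set of proteins, all encoded in the nucleus and imported, and makes only the few respiratory chain subunits that mitochondrial DNA encodes. In the liver, cytosolic ribosomes serve the large output of secreted plasma proteins, and mitochondrial ribosomes serve a tissue that burns fatty acids. Several cytosolic proteins also have paralogs, named with an additional l, which encode near copies of the canonical protein.

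Each gene was read by its brightest probe set, as log2 of the signal with values under 32 raised to 32. On each array 29.9% to 33.5% of all probe sets lay below that floor. Precision was limited by the 4 arrays of each group. The actin signal at the 3′ end over that at the 5′ end, a ratio that rises as RNA degrades, moved with the groups: it was 3.24 to 3.90 in controls, 3.90 to 4.64 in SHS4m and 4.10 to 8.82 in recovery mice, so that every exposed array lay above every control. The highest value belonged to recovery replicate 72. The same ratio for Gapdh overlapped between groups, with 2.65 ± 0.236 in controls, 2.43 ± 0.193 in SHS4m and 3.04 ± 1.01 in recovery mice (SD, n = 4). The part of RNA quality in the differences from controls was not tested. Of the 7 measured hepatocyte markers 6 were bright, and Ass1 was dim on the only probe set it has to itself, with a mean log2 signal of 7.24 in controls, 8.04 in SHS4m and 7.06 in recovery mice. The summed log2 signal of the list was 18.38 to 18.58 in controls, 18.21 to 18.39 in SHS4m and 18.07 to 18.75 in recovery mice. Its median difference from controls was -0.29 in SHS4m mice and -0.14 after recovery. No hepatocyte marker was called in any comparison from limma (2 were lower in SHS4m mice at an unadjusted p under 0.05). Of the 9 lymphocyte markers Ptprc alone was called in SHS4m mice, lower by 0.73 (standard error 0.140, adjusted p = 0.0166 from limma), and the summed log2 signal of the list was 10.02 to 10.79 in controls, 9.605 to 9.908 in SHS4m and 10.27 to 10.35 in recovery mice. Of this list 7 of 9 were at the floor on some arrays, all but Ptprc and Cd79b. Of the 6 macrophage markers Clec4f fell by 0.51 and Marco rose by 1.9 in SHS4m mice (adjusted p = 0.0173 and 0.0137 from limma). The other 4 (Csf1r, Cd68, Adgre1 and Vsig4) differed by -0.25 to -0.60 without a call, so that Marco ran against the rest of a list whose median was -0.38, with 1 higher and 4 lower at an unadjusted p under 0.05. The summed log2 signal of that list was 13.49 to 13.80 in controls, 13.20 to 13.53 in SHS4m and 13.24 to 13.70 in recovery mice. No endothelial, stellate, cholangiocyte, erythroid or cycling marker was called in any comparison from limma (at an unadjusted p under 0.05, at most 2 of a list were higher and 1 lower). The medians of these lists in SHS4m mice were -0.02, -0.52, -0.06, 0.07 and -0.42 in that order. The part of these cells in the results below was not tested, and in whole liver fewer cells of a type and less RNA per cell cannot be told apart.

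The short sequences below show examples of the start-site features that were searched, and each belongs to a gene described further on. Promoters of 43 cytosolic and 67 mitochondrial members were found in RefSeq (GRCm38.p6), from 250 bases before to 50 after each annotated start. Capitals mark the feature searched, and positions count from the annotated start as 1. For Rps6, whose protein is the S6 kinase target, Rpl13a and Rpl22l1 they mark a C followed by at least 5 pyrimidines on the transcribed strand near the start, and for Mrps22, Rps27l and Mrpl22 they mark CCGGAAG, the core letters bound by ETS factors. A second window of Mrpl22 holds GCGCATGCG, the letters bound by NRF1, and that of Rpl7l1 holds AAGATGGCG, the letters bound by YY1.
Rps6, chr4:86857349-86857378, minus strand: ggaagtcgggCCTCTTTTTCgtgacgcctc
Rpl13a, chr7:45128722-45128751, minus strand: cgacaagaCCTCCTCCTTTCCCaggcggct
Rpl22l1, chr3:28805500-28805529, plus strand: gcaagcccgttCTCTTCCCacggctgcagc
Mrps22, chr9:98601672-98601701, minus strand: aacctctcgagCCGGAAGttgctctatcga
Rps27l, chr9:66946084-66946113, plus strand: ccgcctctatcCCGGAAGttgctgaggggc
Mrpl22, chr11:58171600-58171629, plus strand: cttttccggtcCCGGAAGccggcctcggac
Mrpl22, chr11:58171621-58171650, plus strand: gcctcggactGCGCATGCGtatagtcagcc
Rpl7l1, chr17:46782616-46782645, minus strand: aagcaccggaAAGATGGCGgaggaagggtg

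The pyrimidine run began within 25 bases of a start in 31 of 43 cytosolic (72.1%) and 35 of 67 mitochondrial promoters (52.2%), against 41.8% of the 14367 promoters of all genes. CCGGAAG, searched on both strands, was in 21 cytosolic (48.8%) and 25 mitochondrial promoters (37.3%), against 15.0% of all. GCGCATGCG was in 2 cytosolic (4.65%) and 7 mitochondrial promoters (10.4%), against 3.1%, and AAGATGGCG in 3 (6.98%) and 8 (11.9%), against 2.54%. These are matches of letters, described without a test. The run was searched on the transcribed strand only, and it can overlap the opposite-strand form of CCGGAAG, which begins with CTTCC.

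As sets, neither group of genes moved far in SHS4m mice. The median log2 difference from controls was 0.0033 for the 49 cytosolic genes and -0.04 for the 76 mitochondrial genes, against -0.0086 for all genes. The quartiles of the cytosolic genes lay at -0.07 and 0.08, those of the mitochondrial genes at -0.19 and 0.07, and those of all genes at -0.24 and 0.16. After recovery the cytosolic median was 0.06, with 38 of 49 genes above 0 (77.6%, against 45.2% of all genes), and the mitochondrial median was -0.09, with 28 of 76 genes above 0. The cytosolic median after recovery rested on single arrays: it was 0.02 without control replicate 4, 0.03 without recovery replicate 71 and 0.10 without recovery replicate 73. Without control replicate 4 the cytosolic median in SHS4m mice was -0.04. Both comparisons share the 4 control arrays.

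The mean level of a set on each array shows the same small shifts. Relative to the control mean, the cytosolic genes averaged 0.0050, 0.05, 0.05 and -0.10 in the 4 controls, 0.03, 0.00043, 0.03 and -0.01 in SHS4m mice and 0.15, 0.16, 0.12 and -0.03 in recovery mice. Recovery replicates 70 to 72 lay above every control, while replicate 73 lay within the control range. The mean of replicate 70 includes Rpl39l, which read 7.891 there and lay at the floor in all controls. By the median over the cytosolic genes, replicates 70 to 73 were at 0.06, 0.14, 0.09 and -0.06, against -0.09 to 0.05 in controls. The mitochondrial genes averaged -0.0038, -0.04, 0.07 and -0.02 in controls, -0.09, -0.06, -0.02 and -0.07 in SHS4m and 0.0039, -0.07, -0.17 and -0.06 in recovery mice, so that the groups overlapped. The lowest mitochondrial value belonged to recovery replicate 72, the array with the high actin ratio. Without that array the mitochondrial median against controls was -0.04, in place of -0.09. Its part in the result was not tested beyond this.

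**Figure D1:**
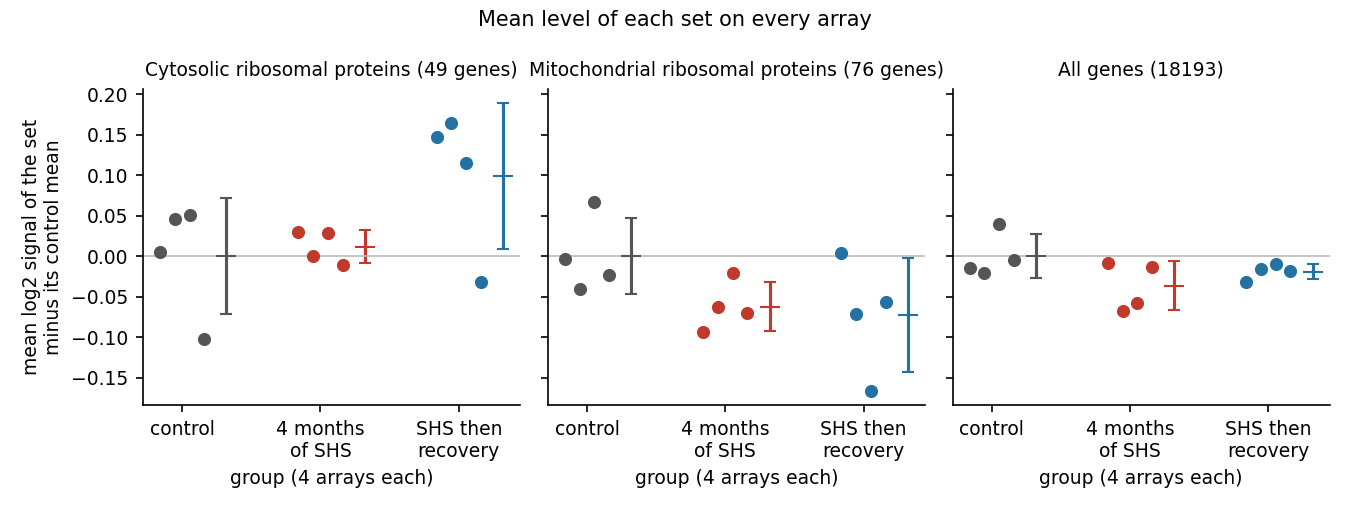
Mean log2 signal of the 49 cytosolic, the 76 mitochondrial and all 18193 genes on each of the 12 arrays, minus the mean of the 4 control arrays; points are arrays and bars the group mean ± SD (n = 4). Cytosolic genes range from -0.10 to 0.16 and mitochondrial genes from -0.17 to 0.07, and the groups overlap in both.

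The members had small errors. The median standard error of a log2 difference was 0.07 for cytosolic and 0.09 for mitochondrial members, against 0.18 for all genes. The members were also bright, with a median log2 signal of 14.18 for cytosolic and 11.15 for mitochondrial genes. On a linear scale the median signal of all probe sets on an array was only 65.15 to 78.15. The comparisons with all genes, here and in the counts of calls, were not matched for brightness. In SHS4m mice against controls the 95% confidence interval of the difference lay within 0.5 log2 units of 0 for 37 of 49 cytosolic genes (75.5%) and 61 of 76 mitochondrial genes (80.3%), against 35.3% of all genes. After recovery these numbers were 40 and 66. The cytosolic numbers count Rps16, which lay at the floor on every array and gives no reading.

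A gene was called at a Benjamini-Hochberg adjusted p under 0.05 from limma, adjusted over all 45037 probe sets. In SHS4m mice against controls 5.4% of all probe sets were called, and read by gene 3.73% of all genes were called higher and 3.74% lower (7.47% in all). Of the cytosolic genes 1 was called higher and 2 lower (6.12%), a share near this background. Of the mitochondrial genes 5 were called higher and 6 lower (14.5%). When the arrays were centred on their medians, the cytosolic calls were 1 higher and 1 lower and the mitochondrial calls 2 higher and 1 lower (Mrps28, Mrpl52 and Mrps22 in all), against 3.48% of all genes higher and 1.98% lower. With quantile normalization the cytosolic calls were 1 higher and 1 lower (4.12% and 3.53% of all genes). The mitochondrial share no longer stood out from that of all genes with centring, with a percentile floor or with a filter on dim probe sets. At the study's threshold of 2-fold, taken with an unadjusted p under 0.05, 2.81% of all genes passed and no member did.

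**Figure D2:**
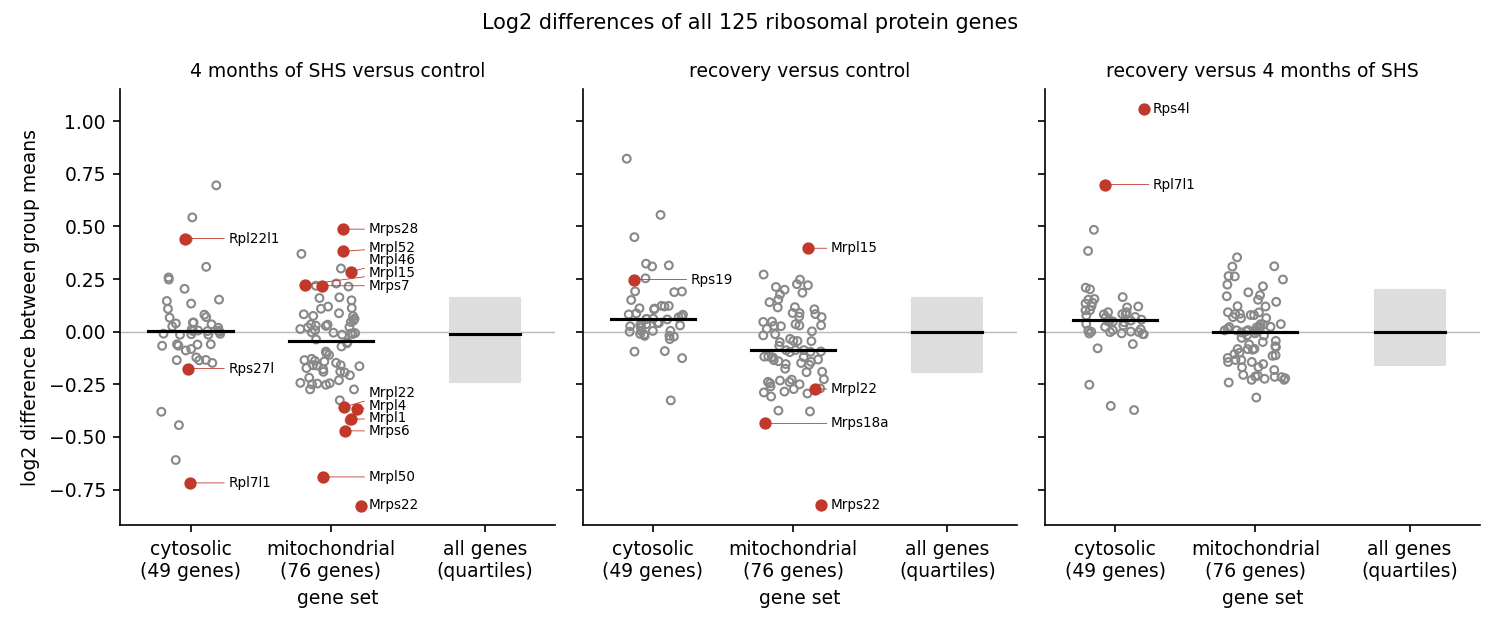
Log2 difference between group means for each of the 49 cytosolic and 76 mitochondrial genes in the 3 comparisons; filled points are called at the adjusted p and named, black lines are medians, and the grey box gives the quartiles of all 18193 genes. Most members lie near 0, and the named genes lie both above and below.

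The mitochondrial genes that fell in SHS4m mice were led by Mrps22, a protein of the small subunit whose start site is printed above. Its log2 signal was 11.96, 11.63, 11.95 and 11.78 in controls, 11.00, 11.02, 10.93 and 11.06 in SHS4m mice and 11.30, 11.11, 10.72 and 10.90 in recovery mice. Every control array lay above every exposed array, and the exposed groups overlapped each other. Mrps22 was 1.77-fold lower in SHS4m mice (log2 difference -0.83, standard error 0.120, adjusted p = 0.0049 from limma) and 1.77-fold lower after recovery (-0.82, adjusted p = 0.0120).

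Mrpl50, a protein of the large subunit, had log2 signals of 11.05, 10.86, 11.23 and 10.86 in controls, 10.10, 10.37, 10.53 and 10.24 in SHS4m mice and 10.76, 10.78, 10.36 and 10.58 in recovery mice. It fell by 0.69 in SHS4m mice (standard error 0.127, adjusted p = 0.0142 from limma), without overlap with controls, and its difference after recovery was -0.38 (adjusted p = 0.199). Its second probe set gave -0.34 in SHS4m mice and was not called.

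Mrps6, of the small subunit, fell by 0.47 in SHS4m mice (adjusted p = 0.0154 from limma), and its second probe set was also called, at -0.65. Its log2 signal was 10.16 to 10.50 in controls, 9.716 to 9.988 in SHS4m and 10.16 to 10.33 in recovery mice, so that the SHS4m arrays lay below both other groups. The large-subunit genes Mrpl1, Mrpl4 and Mrpl22 fell by 0.42, 0.37 and 0.36 (adjusted p = 0.0103, 0.0330 and 0.00536 from limma). The other 2 probe sets of Mrpl1 gave -0.10 and, near the floor, -0.40, and neither was called. Its call was lost when all its probe sets were averaged. Mrpl22 had log2 signals of 12.27, 12.14, 12.38 and 12.28 in controls, 11.87, 12.03, 11.85 and 11.91 in SHS4m and 12.00, 12.01, 12.02 and 11.96 in recovery mice. Its control arrays lay above all 8 exposed arrays.

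Among the mitochondrial genes that rose, Mrps28 of the small subunit had the largest difference. Its log2 signal was 11.55, 11.32, 11.30 and 11.39 in controls, 11.87, 11.82, 11.85 and 11.96 in SHS4m mice and 11.77, 11.68, 11.61 and 11.59 in recovery mice. The 3 groups did not overlap, with recovery between the other two. It rose 1.40-fold in SHS4m mice (log2 difference 0.49, standard error 0.0606, adjusted p = 0.00251 from limma), while its difference of 0.27 after recovery was not called (adjusted p = 0.0560).

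Mrpl52, Mrpl46, Mrpl15 and Mrps7 also rose in SHS4m mice, by 0.38, 0.28, 0.22 and 0.22 on the log2 scale (adjusted p = 0.0231, 0.0181, 0.0332 and 0.0320 from limma). Mrpl15 is the least certain of these: its 8 probe sets gave differences from -0.21 to 0.42, and the brightest 2, which carry the suffix for probes shared with other transcripts, were the ones called. Without probe sets of that kind Mrpl15 read -0.21 (adjusted p = 0.530 from limma).

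**Figure D3:**
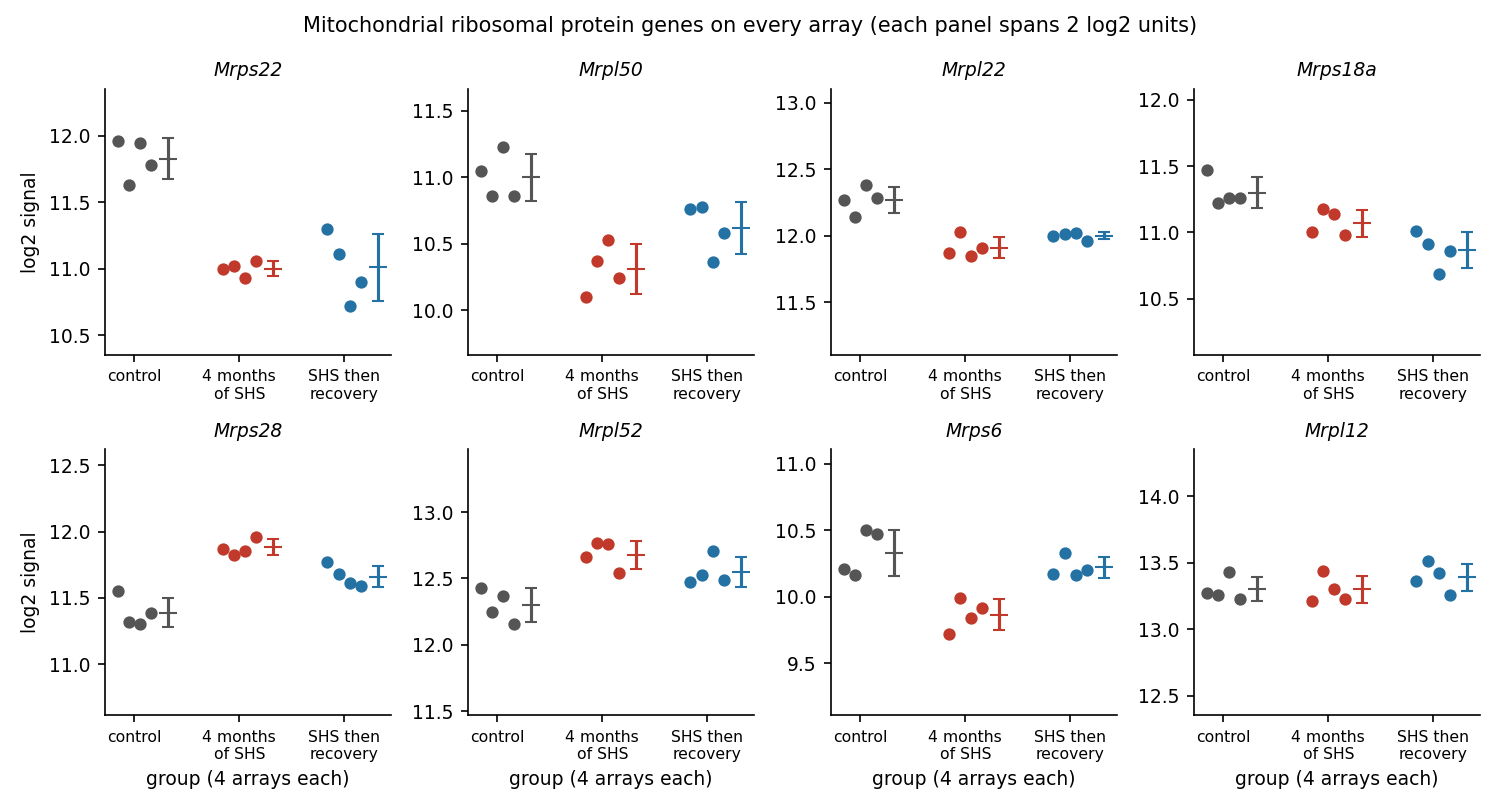
Log2 signal of 8 mitochondrial ribosomal protein genes on each array, with the group mean ± SD (n = 4) beside the points; each panel spans 2 log2 units. Mrps22 lies at 11.63 to 11.96 in controls and at 10.72 to 11.30 in both exposed groups, while Mrpl12 overlaps in all 3 groups.

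Mrpl12, which also binds the mitochondrial RNA polymerase, had a difference of -0.0028 in SHS4m mice (95% confidence interval -0.16 to 0.15). The family of 3 Mrps18 paralogs gave -0.23 for Mrps18a, -0.21 for Mrps18b and 0.11 for Mrps18c in SHS4m mice, none of them called. The differences of Mrpl11, Mrpl41, Mrps12, Mrps15 and Mrps30 lay between -0.19 and 0.21 and were not called. By name, the 47 Mrpl genes had a median of -0.01 with 3 called higher and 4 lower, and the 29 Mrps genes a median of -0.09 with 2 higher and 2 lower.

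The cytosolic genes called in SHS4m mice were all paralogs. Rpl7l1, a relative of Rpl7 that acts in ribosome assembly, had log2 signals of 10.28, 10.30, 10.58 and 10.47 in controls, 9.883, 9.473, 9.519 and 9.883 in SHS4m mice and 10.66, 10.53, 10.32 and 10.05 in recovery mice. The SHS4m arrays lay below all others. It fell by 0.72 in SHS4m mice (1.65-fold lower, standard error 0.149, adjusted p = 0.0230 from limma), with its 2 other probe sets at -0.20 and -0.08 and not called.

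Rpl22l1, the paralog of Rpl22, had log2 signals of 13.41, 13.13, 13.25 and 12.94 in controls, 13.63, 13.56, 13.68 and 13.64 in SHS4m and 13.45, 13.22, 13.38 and 13.45 in recovery mice. Its SHS4m arrays lay above all others. It rose by 0.44 in SHS4m mice (1.36-fold, standard error 0.0919, adjusted p = 0.0233 from limma), while Rpl22 itself differed by -0.06 (adjusted p = 0.620, interval -0.17 to 0.05). After recovery Rpl22l1 differed from controls by 0.19 (adjusted p = 0.418).

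Rps27l, a p53-responsive paralog of Rps27, fell by a small but tightly measured amount. Its log2 signal was 15.06, 15.05, 14.98 and 14.98 in controls, 14.86, 14.77, 14.86 and 14.87 in SHS4m and 14.91, 14.99, 14.92 and 14.89 in recovery mice. The SHS4m arrays lay below those of both other groups. The difference from controls was -0.18 (1.13-fold lower, standard error 0.0321, adjusted p = 0.0137 from limma), and both of its other probe sets were called too, at -0.19 and -0.23. The call was lost in 5 of 20 alternative analyses (adjusted p up to 0.611 from limma). With each array centred on its median the difference was -0.10. It was also lost with quantile normalization, with a floor of 16 or at the 25th percentile of each array, and with dim probe sets filtered out. Rps27 was dim, and its difference of 0.54 had an interval of -0.16 to 1.25.

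No canonical member of the cytosolic ribosome was called in SHS4m mice on its brightest probe set (0 of 43). The 43 include Rps16, whose only probe set of its own lay at the floor on every array, so that a change in it could not be seen. The differences of the 43 ran from -0.44 for Rpl14, which was dim (95% confidence interval -1.03 to 0.14), to 0.70 for Rps25, of the small subunit. Rps25 was dim too, with a mean log2 signal of 7.65 over all arrays on its only probe set, against 7.49 for Rpl14. Rps25, named after its values were seen, had log2 signals of 6.782, 7.476, 7.621 and 7.370 in controls, 8.448, 7.872, 7.947 and 7.765 in SHS4m and 7.804, 7.850, 7.597 and 7.292 in recovery mice. Its SHS4m arrays lay above the controls, with an interval of 0.22 to 1.17 and an adjusted p of 0.104 from limma (0.00898 unadjusted). Rplp0, the stalk protein of the large subunit that is often used as a reference gene, had log2 signals of 14.25, 14.37, 14.36 and 14.29 in controls, 14.39, 14.46, 14.48 and 14.56 in SHS4m and 14.40, 14.61, 14.49 and 14.39 in recovery mice. All exposed arrays lay above the controls, by 0.15 in each comparison, but neither difference was called (adjusted p = 0.167 and 0.240 from limma). Rpl13a and Rpl11, which binds Mdm2 when ribosome assembly is disturbed, differed by 0.02 and 0.0049 in SHS4m mice, with intervals of -0.16 to 0.20 and -0.11 to 0.12. Rpsa, the laminin receptor protein of the small subunit, differed by 0.25 (adjusted p = 0.237), Rps6 by 0.13 (0.399) and Rps3 by -0.15 (0.115).

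**Figure D4:**
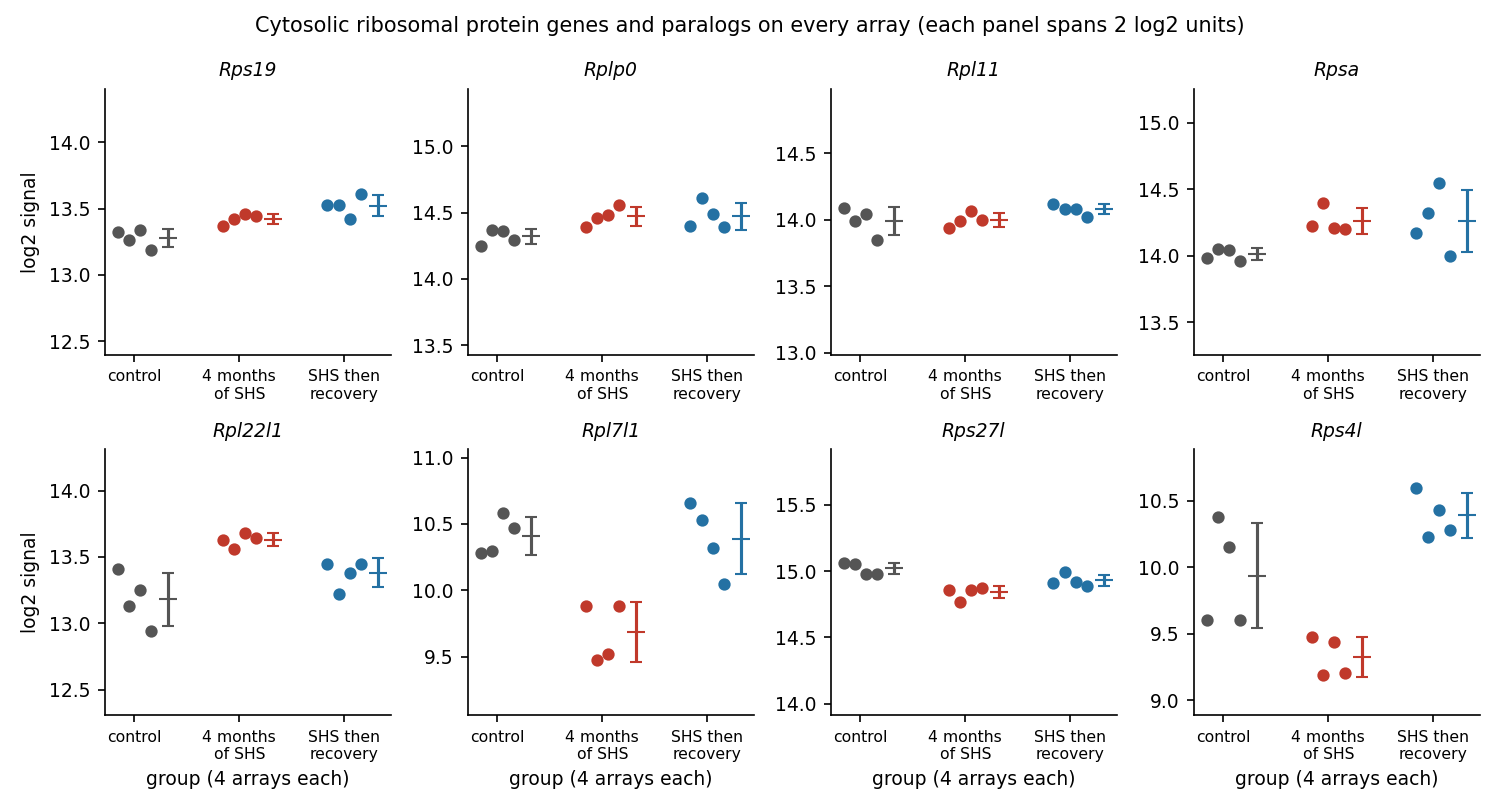
Log2 signal of 4 canonical cytosolic ribosomal protein genes (upper row) and 4 paralogs (lower row) on each array, with the group mean ± SD (n = 4) beside the points; each panel spans 2 log2 units. Rpl11 overlaps in all groups, while the SHS4m arrays of Rpl7l1 and Rps27l lie below and those of Rpl22l1 above every other array.

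Leaving out 1 array at a time showed which of the 14 calls in SHS4m mice were kept with fewer arrays. Without an SHS4m or control array, calls among all genes also fell, to 2.42% to 3.28% higher and 2.44% to 3.14% lower. In the main fit they were 3.73% and 3.74%. A lost call therefore does not by itself show that the call rested on the array removed. Those of Mrps22, Mrps28, Mrpl50, Mrpl22, Mrps6, Mrpl1 and Rps27l were kept each time. Rpl7l1 lost its call without SHS4m replicate 67 or 68 or control replicate 3 or 4 (adjusted p up to 0.0661 from limma over all alternatives), and Rpl22l1 lost it without SHS4m replicate 66, 68 or 69 or control replicate 2 (0.0727). Mrpl46 lost it without SHS4m replicate 67 or 68 (0.159), Mrpl52 without SHS4m replicate 66, 67 or 68 or control replicate 2 or 4 (0.0944), and Mrpl4 without SHS4m replicate 66, 67 or 69 or control replicate 2, 3 or 4 (0.204). Mrps7 and Mrpl15 lost it in 7 of 12 such fits each.

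In recovery mice against controls 2.07% of all probe sets were called, and 1.37% of genes were higher and 1.14% lower (2.52% in all). Of the cytosolic genes 1 was called higher and 0 lower (2.04%, with 7 higher and 1 lower at an unadjusted p under 0.05 from limma), and of the mitochondrial genes 1 higher and 3 lower (5.26%). With arrays centred on their median no cytosolic gene was called and 1 mitochondrial gene was called in each direction (Mrpl15 and Mrps22). Of all genes 0.901% were then called higher and 0.357% lower. At 2-fold with an unadjusted p under 0.05, 1.21% of genes and no member passed. Besides Mrps22, whose call was lost only when the 8 arrays compared were fitted alone, Mrpl22 fell by 0.27 (adjusted p = 0.0345 from limma), a call kept in 6 of 20 alternatives, and Mrps18a fell by 0.44 (standard error 0.0812, adjusted p = 0.0299). Mrps18a had log2 signals of 11.47, 11.22, 11.26 and 11.26 in controls and 11.01, 10.91, 10.69 and 10.86 in recovery mice, without overlap. Its call was lost without recovery replicate 71, 72 or 73 or control replicate 1, 3 or 4, and its adjusted p was at most 0.242 over all alternatives.

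Rps19, a small-subunit protein whose loss causes Diamond-Blackfan anaemia, was the only canonical cytosolic gene called in any comparison on its brightest probe set. Its log2 signal was 13.32, 13.26, 13.34 and 13.19 in controls, 13.37, 13.42, 13.46 and 13.44 in SHS4m and 13.53, 13.53, 13.42 and 13.61 in recovery mice. All exposed arrays lay above the controls. It rose 1.19-fold after recovery (log2 difference 0.25, standard error 0.0452, adjusted p = 0.0272 from limma), a call lost in 12 of 20 alternatives, among them the removal of control replicate 1, 2 or 4 or of recovery replicate 70, 71 or 73. Mrpl15 rose by 0.40 on its brightest probe set (adjusted p = 0.00788) and read -0.14 without shared probe sets.

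Between recovery and SHS4m mice 2.54% of all probe sets were called, and 2.01% of genes were higher and 1.68% lower after recovery (3.68% in all). Of the cytosolic genes 2 were called higher (4.08%). No mitochondrial gene was called, though 8 were higher and 11 lower at an unadjusted p under 0.05 from limma among the 76. At 2-fold with an unadjusted p, 1.93% of genes passed, and of the members Rps4l did. Rps4l, a rodent relative of Rps4x, had log2 signals of 9.606, 10.38, 10.15 and 9.603 in controls, 9.472, 9.187, 9.441 and 9.207 in SHS4m and 10.60, 10.23, 10.43 and 10.28 in recovery mice. It was 2.08-fold higher after recovery than at the end of exposure (log2 difference 1.06, standard error 0.180, adjusted p = 0.0178 from limma), and the call was lost without SHS4m replicate 67 or 69 (adjusted p up to 0.0503). Its difference from controls was -0.61 in SHS4m mice and 0.45 after recovery, neither of them called. Rpl7l1 was higher after recovery by 0.70 (adjusted p = 0.0419), a call lost in 15 of 20 alternatives, among them the removal of any array but recovery replicate 73.

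In all, 4 of the 6 measured paralogs (Rpl22l1, Rpl7l1, Rps27l and Rps4l) were called in at least 1 comparison on the brightest probe set, against Rps19 alone among the other 43 cytosolic genes and 9.77% of all genes. This grouping was made after the values were seen and was not tested. The other paralogs, Rpl3l and Rpl39l, lay at or near the floor on most arrays. In the mitochondrial set 12 of 76 genes were called in at least 1 comparison (15.8%, against the same 9.77%).

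Probe sets of 1 gene did not always give the same reading. Of 136 probe sets that were not the brightest of their gene, 12 were called in at least 1 comparison, and 4 genes were called on such a probe set only. Read by the brightest probe set, 9.77% of all genes were called in at least 1 comparison, which is an unlike measure. The share of called probe sets among those that are not the brightest was not counted over all genes. Whether these counts are unusual therefore cannot be judged. Among the 4 genes, chosen after their values were seen, Rpl35 had 3 called probe sets in SHS4m mice (0.40, 0.24 and 0.24), while its brightest gave 0.31 (adjusted p = 0.108 from limma). One of the 3 was also called after recovery, at 0.23 (adjusted p = 0.0425). For Rps18 the second brightest probe set gave 0.29 in SHS4m mice (adjusted p = 0.0177) and 0.47 after recovery (adjusted p = 0.00688), while the brightest gave 0.0099 in SHS4m mice. On these probe sets, then, canonical cytosolic genes besides Rps19 were called higher. Of the 110 probe sets that list a cytosolic member with other genes, 5 were called higher and 1 lower in SHS4m mice, with a median of 0.0056. This is near the share among all probe sets, of which 5.4% were called. After recovery 5 of them were called higher and 0 lower, with a median of 0.05, where 2.07% of all probe sets were called.

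**Figure D5:**
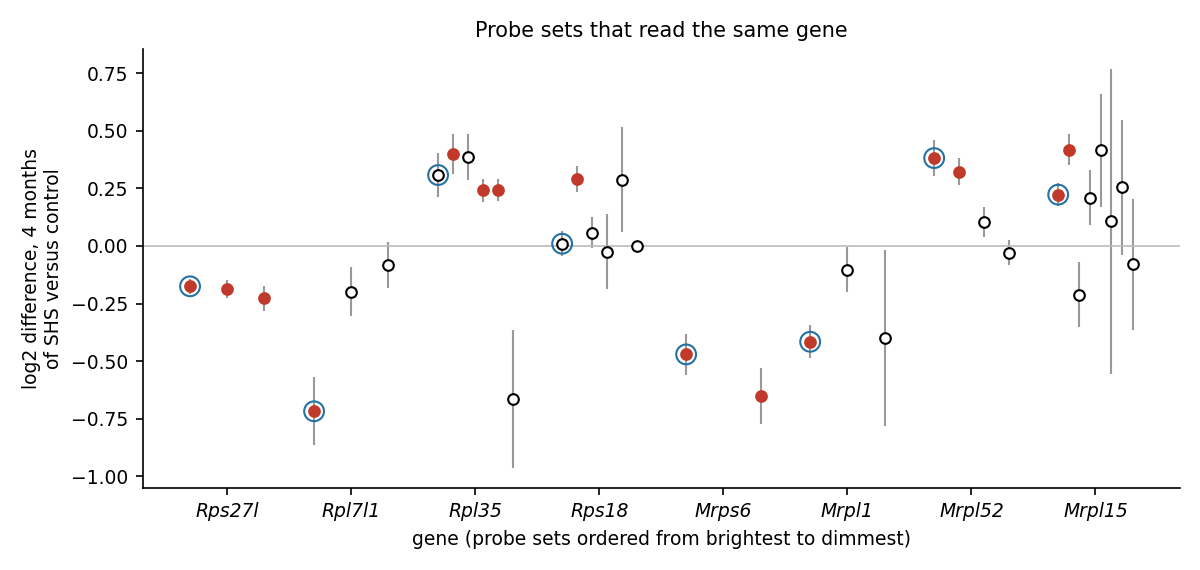
Log2 difference between SHS4m mice and controls (± standard error) for each probe set of 8 genes, ordered from brightest to dimmest; filled points are called at the adjusted p and the ring marks the brightest. The 3 probe sets of Rps27l lie between -0.23 and -0.18, while the 8 of Mrpl15 lie on both sides of 0.

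Genes that build or govern ribosomes were read beside the members. Of 60 ribosome biogenesis genes, 1 was called higher and 3 lower in SHS4m mice and 4 higher and 1 lower after recovery (6.67% and 8.33%, against 7.47% and 2.52% of all genes). Nucleolin (Ncl), a nucleolar RNA-binding protein, rose by 0.52 and 0.64 (adjusted p = 0.0377 and 0.0325 from limma), and Npm1 rose by 0.41 after recovery (0.0271). Utp3, of the small-subunit processome, fell by 0.66 and 0.42 (0.00362 and 0.0491), and Dkc1 fell by 0.55 in SHS4m mice (0.0246). Of 41 translation factors 3 were called higher and 2 lower in SHS4m mice (12.2%, against 7.47%), among them Eif6, which keeps subunits apart, at 0.44 (adjusted p = 0.0391), and Eif2b4 at -0.59 (0.0144).

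Of 34 genes of mTORC1 and translational control, 3 were called higher and 2 lower in SHS4m mice (14.7%, against 7.47% of all genes). Mknk2 rose by 0.76 in SHS4m mice and by 0.78 after recovery (adjusted p = 0.0238 and 0.0394 from limma). Eif4ebp1, named after its values were seen, encodes the cap-binding inhibitor that mTORC1 phosphorylates. It rose by 0.53 in SHS4m mice (adjusted p = 0.00363 from limma). Eef2k, the kinase that slows elongation, fell by 1.37 (adjusted p = 0.00604) and was higher by 1.86 after recovery than at the end of exposure (0.00309), and Pdcd4, an inhibitor of the helicase eIF4A, fell by 0.84 (0.00275). Of 20 genes of the integrated stress response, 2 were called higher and 0 lower in SHS4m mice. Of all genes 3.73% were called higher and 3.74% lower. The 2 were Asns, for asparagine synthesis, by 1.97 (adjusted p = 0.0177 from limma) and the kinase Eif2ak1 by 0.31 (0.00969). The median of this list was -0.19, with 3 higher and 3 lower at an unadjusted p under 0.05 from limma. Its summed log2 signal was 14.17 to 14.44 in controls, 13.97 to 14.14 in SHS4m and 13.84 to 14.28 in recovery mice.

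On the mitochondrial side, 47 genes of mitochondrial translation and ribosome assembly gave 1 called higher and 1 lower in SHS4m mice (4.26%, against 7.47% of all genes) and 0 in either direction after recovery (2 higher and 9 lower at an unadjusted p under 0.05 from limma). Dap3, which is itself a small-subunit protein under another name, rose by 0.47 (adjusted p = 0.0227), and the initiation factor Mtif2 fell by 0.39 (0.00691). Of 10 regulators of mitochondrial biogenesis 3 rose in SHS4m mice, where 3.73% of all genes rose. Ppargc1a, the coactivator of mitochondrial gene programmes, rose by 1.74 (adjusted p = 0.00422) and was lower by 1.68 after recovery than at the end of exposure (0.00886), Ppargc1b rose by 1.31 (0.0353) and Esrra by 0.66 (0.0440). Of 75 respiratory chain subunits 1 was called higher and 4 lower in SHS4m mice (6.67%), with Atp5j at -0.28 (adjusted p = 0.00141) and Ndufb9 at -0.22 (0.00444).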

How the data were processed

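Total liver RNA was hybridised to 12 arrays, and the deposited value table holds probe set intensities on a linear scale, which the authors made in Affymetrix Expression Console with the mean of each array scaled to 500 after trimming 2% at each end. How probes were summarised is not stated in the sources used here. Groups came from the sample labels. The 64 control probe sets were left out, 932 probe sets that list several genes were not read for a gene, and 9160 had no entry in the probe annotation. Values were floored at 32, log2 was taken, and limma (version 3.58.1, R 4.3.3) was fitted to all 12 arrays in 1 model of 3 group means, with two-sided p-values adjusted over all probe sets of a comparison. The fit was tested on simulated data. Each gene was read by its brightest probe set of its own. Named genes were up to 5 called genes a direction, comparison and set, fixed members such as Rplp0 and Mrpl12, and some of the called genes of each pathway list. Members and lists were chosen with earlier results of these data known. p-values measure the spread between mice. Alternatives changed the floor, filter, scaling, probe set choice, arrays fitted and each array left out.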

Additional observations from a re-analysis of the deposited data

Results flagged for a closer look

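Some arrays lay far from the other 3 of their group by Dixon's criterion, which flags about 1 in 20 groups by chance; here 10 of 107 gene-by-group sets of the 36 named members were flagged. Control replicate 4 was low for Rpl22 (log2 signal 14.47) and Rplp2 (14.64), and control replicate 2 for Mrpl1 (10.22), while control replicate 1 was high for Mrps18a (11.47). SHS4m replicate 67 was low for Mrps15 (10.94) and high for Rpsa (14.4), and SHS4m replicate 68 was low for Rps6 (10.53). Near the floor, Rpl39l stood out in recovery replicate 70 (7.891) and Rpl3l in control replicate 2 (5.512) and SHS4m replicate 66 (5.946). For Rpl3l the other 3 arrays of each of these groups lay at the floor, so that any value above it is flagged. These flags of Rpl3l are among the 10 and carry no information.

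Rpl7l1 and Rps4l differed between the end of exposure and recovery, tested as the contrast of both exposed groups in limma. The log2 difference of recovery from SHS4m mice was 0.6992 for Rpl7l1 (adjusted p = 0.0419) and 1.059 for Rps4l (adjusted p = 0.0178). Every recovery array lay above every SHS4m array for both genes. Age also differs between these groups and cannot be told apart from recovery.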

How the results depend on the processing

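Under the alternatives, named genes kept their direction and side of the threshold in 2121 values, lost a call in 133, gained one in 9 and reversed in 2, both of Mrpl15 without shared probe sets (-0.2112 in SHS4m mice and -0.1363 after recovery). Centring each array on its median moved the set medians to 0.08134 and 0.1403 (cytosolic, SHS4m and recovery against controls) and 0.03473 and -0.008439 (mitochondrial), while the median of all genes moved alike, from -0.00861 to 0.06947 and from 0.0 to 0.0792. Called genes were few, so counts moved readily. In SHS4m mice the 3 cytosolic calls became 1 with the percentile floor or the filter on dim probe sets, and the 11 mitochondrial calls became 3 with centring, 3 with the percentile floor, 7 with the floor of 16 and 5 with the filter, and ranged from 7 (without SHS4m replicate 66, 67 or 68) to 12 with 1 array left out. Of all genes 3.48% were called higher and 1.98% lower with centring, and 2.14% and 2.3% with the percentile floor. These shares were 2.94% and 3.08% with the floor of 16 and 3.02% and 3.48% with the filter. With 1 array left out they were 2.42% to 3.79% higher and 2.44% to 3.97% lower. After recovery the 1 cytosolic call became 0 with centring, quantile normalization, either floor, the filter or only the 8 arrays compared, 2 with probe sets that list several genes (an alternative chosen after seeing the data), and 0 to 1 with 1 array left out; the 4 mitochondrial calls became 2 with centring, 1 with the percentile floor, 2 with the floor of 16, 1 with the filter and 1 with 8 arrays, and ranged from 2 (without control replicate 3 or 4 or recovery replicate 71, 72 or 73) to 5. Between recovery and SHS4m mice the 2 cytosolic calls became 1 with either floor, the mean of all probe sets or 8 arrays, and ranged from 0 (without SHS4m replicate 67 or 69) to 3, and the 0 mitochondrial calls became 2 with the mean of all probe sets. Of all genes in recovery mice against controls, 0.901% were called higher and 0.357% lower with centring. These shares were 0.418% and 0.407% with the percentile floor and 0.83% and 0.753% with the floor of 16. With the filter they were 0.753% and 0.683%, and with 8 arrays 0.379% and 0.308%. Between recovery and SHS4m mice they were 1.04% and 0.885% (percentile floor), 1.43% and 1.19% (floor of 16) and 1.18% and 1.07% (8 arrays). The cause of the changes in the counts was not tested. The calls of Mrps22 and Mrps28 in SHS4m mice were kept in all 20 alternatives. No paired analysis was possible because the replicate numbers of the groups are not shared. Signal at or near the floor limits Rpl3l, Rpl39l and Rpl12, and Rps16 lay at the floor on every array.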
